A study of Equus caballus with 15 samples.

Results

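The comparison set macrophages that received PRP lysate together with IL-1ß against macrophages that received IL-1ß alone, and it asks what the platelet product changes in cells given IL-1ß. PRP lysate is platelet rich plasma from horses in which the platelets have been broken open to release their content. The members of the comparison were the 3 PRP lysate libraries and the 3 IL-1ß libraries, 6 of the 15 libraries of the series, and all 11628 genes of the 16932 listed that had a mean of at least 1 CPM, the reads of a gene scaled by the depth of its library, over the 15 libraries. All cells were equine macrophages grown from blood mononuclear cells of 2 horses over 5 days with 30 ng/ml M-CSF, the growth factor that turns blood monocytes into macrophages. IL-1ß, a cytokine raised in inflamed joints, was given at 10 ng/ml in 4 of the 5 conditions. PRP lysate, autologous conditioned serum (ACS, serum from incubated blood) and medium conditioned by mesenchymal stromal cells (MSC-CM) were each added at 25% of the medium for 24 h, at the same time as IL-1ß. Untreated macrophages received M-CSF and neither of these. The PRP lysates came from 3 donor horses, which also gave the ACS and MSC-CM, whereas the IL-1ß and the untreated libraries are repeats of the same macrophages. The p-values therefore rest in part on a technical spread. No condition with PRP lysate and without IL-1ß was analysed here, and medium with plasma or serum but no platelet content was not part of the comparison.

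Macrophages clear dying cells, bind haemoglobin and modified lipoproteins through scavenger receptors, and present antigen. Those grown in M-CSF carry high scavenger and efferocytosis receptors, while GM-CSF, IL-4 and IL-13 are known to favour the chemokines CCL17 and CCL22 and CD1 molecules. Platelets store growth factors, chemokines and TGF-ß in granules, and these are released when they are lysed. IL-1ß acts through NF-kB and raises cytokines, chemokines and proteases of the joint, and IL-1 receptor antagonist (IL1RN) blocks its receptor.

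Library depth ranged from 28410735 to 41825493 reads over the 6 libraries, so that 1 CPM was at least 28.41 reads. PRP lysate 1 and IL-1ß 3 stood apart from the other 2 libraries of their groups. In log2 distance over all tested genes PRP lysate 2 and 3 lay 29.2 apart, and PRP lysate 1 lay 85.4 and 88.1 from them. IL-1ß 1 and 2 lay 44.6 apart, and IL-1ß 3 lay 131.8 and 103.5 from them. PRP lysate 1 lay nearer to IL-1ß 2 (82.8) and IL-1ß 3 (84.4) than to either library of its own group. PRP lysate 2 and 3 lay nearer to IL-1ß 1 (56.5 and 57.7) than to PRP lysate 1. The summed level of 54 ribosomal protein genes was 45457, 25719.6 and 28603 CPM in PRP lysate 1, 2 and 3 and 28169.8, 35181 and 59116 CPM in IL-1ß 1, 2 and 3. It was highest in PRP lysate 1 and IL-1ß 3. T cell markers, 21 genes, moved in the same way, with sums of 3076, 1614 and 1907 CPM with PRP lysate and 2056, 2226 and 3079 CPM with IL-1ß alone. The cultures thus held lymphocyte RNA in every library. Of the macrophage markers, CD68 was at 1339.7, 1929 and 1712 CPM with PRP lysate and 1673, 1742 and 1476 CPM with IL-1ß alone, whereas CD14 did not exceed 4.32 CPM in any of the 6. Results are therefore given with all 6 libraries, and the calls that changed without the pair that stood apart are given beside the gene or together further on. In these bulk samples fewer cells of a type and less RNA per cell cannot be told apart.

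**Figure D1:**
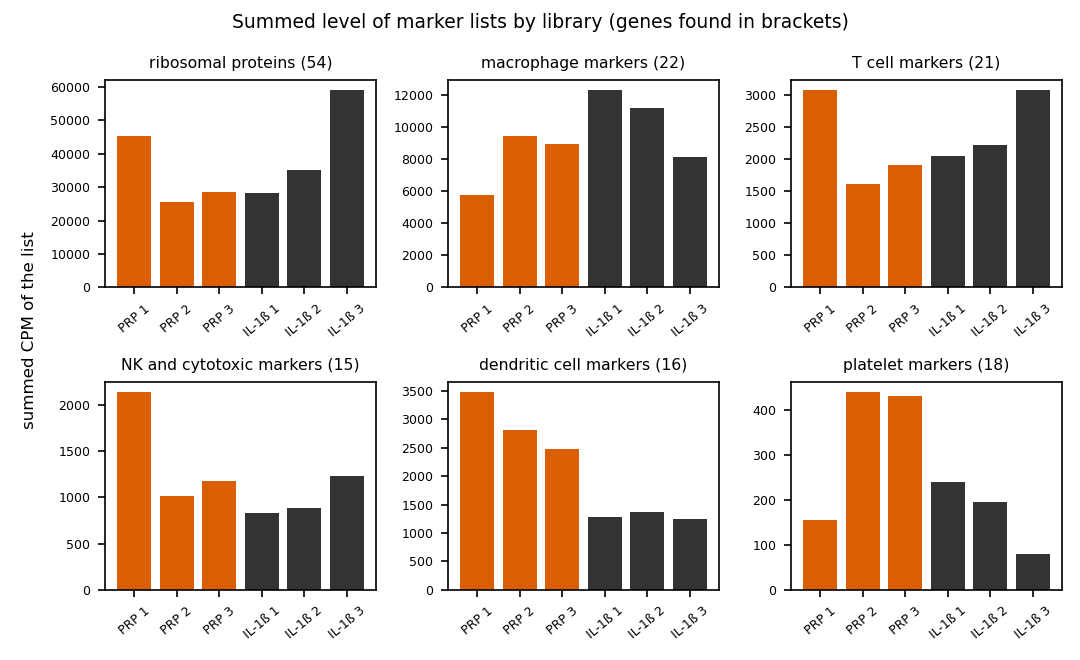
Bars give the summed CPM (vertical axis, from 0) of 6 marker lists in each of the 6 libraries, with the number of genes found in brackets. Ribosomal protein and T cell marker sums are highest in PRP lysate 1 and IL-1ß 3, and dendritic cell marker sums of all 3 PRP lysate libraries, 2481 CPM or more, lie above those of all IL-1ß libraries, 1371 CPM or less. Of the 13 tested dendritic cell markers CCL22, CCL17, IRF8 and CD83 were called higher and FCER1A and FLT3 lower.

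With PRP lysate 359 genes changed, 124 upwards and 235 downwards, by an adjusted p of 0.05 or less and a fold change of at least 2 (limma on log2(CPM + 1)). That is 3.09% of the genes tested, 1.07% higher and 2.02% lower, and the median log2 fold change over all tested genes was 0.11. The downward side was also the larger in size. A fold of 4 or more was reached by 68 of the genes that fell and by 9 of those that rose. The genes that fell furthest include surface receptors of macrophages, and those that rose furthest include chemokines, cytokines and secreted vascular proteins. The libraries of the groups did not overlap for 1740 genes, 15% of those tested (8.5% higher and 6.47% lower with PRP lysate, 988 and 752 genes). With RLE size factors, which scale each library by its median ratio to the others, the larger side turned over, with 801 higher and 910 lower. Unscaled, 357 of the 359 genes were among the 1740. The exceptions were LIMCH1, at 4.78, 15.8 and 10.9 CPM with PRP lysate against 66.8, 48.2 and 14.9 CPM with IL-1ß alone, and SPEF2, at 11, 27 and 25.3 CPM against 11.9, 7.26 and 4.84 CPM. Both were named after their values were seen. Of the 359 calls, 204 held when any 1 of the 6 libraries was left out. A fit of the 6 libraries alone, without the other conditions to estimate the spread, called 56 genes (10 higher and 46 lower). Without PRP lysate 1 and IL-1ß 3 such a fit of the 4 remaining libraries called 505 (194 and 311), where the fit with the other conditions called 513. DESeq2, a test on the reads recovered from the CPM, called 558 of the same 11628 genes (174 higher and 384 lower). Counts of list members given from here on stand against these shares of all genes, 1.07% higher and 2.02% lower. Lists share members, so the same gene can be counted in several of them. Below, CPM are given in the order of replicates 1, 2 and 3 with the PRP lysate libraries before the IL-1ß libraries, and a value in brackets after them is the log2 fold change, PRP lysate minus IL-1ß alone, ± its standard error.

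**Figure D2:**
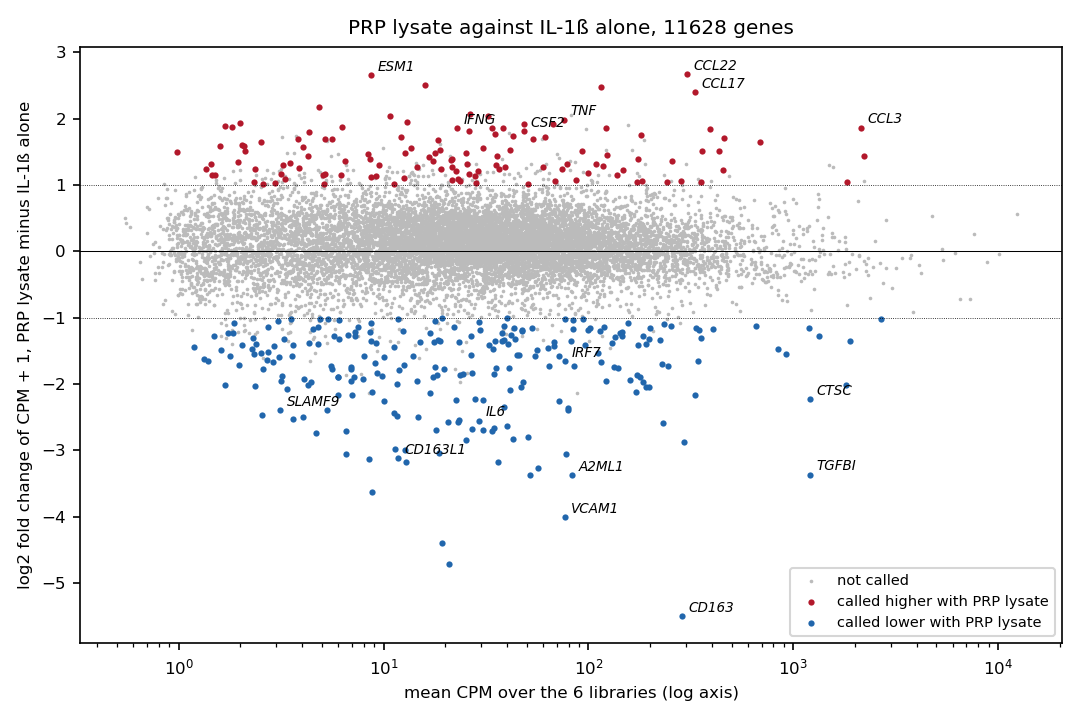
Each point is 1 of 11628 genes, with its mean CPM over the 6 libraries on a log axis and its log2 fold change of CPM + 1, PRP lysate minus IL-1ß alone. The dotted lines mark a fold of 2. The 235 genes called lower reach -5.50 (CD163), and the 124 called higher reach 2.67 (CCL22).

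CD163, the receptor that takes up haptoglobin-bound haemoglobin, had the largest fall in log2 fold change. On chromosome 6 (EquCab3.0, 35896420 to 35918134) it was measured at 7.34, 13.3 and 13.4 CPM in PRP lysate 1, 2 and 3 and at 685, 638 and 365 CPM in IL-1ß 1, 2 and 3. Every PRP lysate library lay under every IL-1ß library, and the ratio of the means was 49.5-fold. The log2 fold change was -5.50 ± 0.39 (SE, adjusted p = 9.04e-06), and -5.53 without the pair that stood apart. Untreated macrophages held 243 ± 83.8 CPM (SD, n = 3), so the level with PRP lysate was also under that of cells that never met IL-1ß. Its relative CD163L1 was at 1.72, 1.36 and 1.87 CPM against 23.9, 22.3 and 19.7 CPM (log2 fold change -3.12).

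The next 2 falls were neighbouring genes of chromosome 12 that the file lists by identifier only and that the study's annotation describes as membrane-spanning 4-domain (MS4A) proteins. ENSECAG00000017042 (23505138 to 23516845) was at 0.564, 1.0 and 0.317 CPM with PRP lysate against 36.9, 44.1 and 42.8 CPM (-4.72 ± 0.34 on the log2 scale, adjusted p = 9.04e-06). ENSECAG00000038794 (23531793 to 23697961) was at 0.43, 1.34 and 0.845 CPM against 35.2, 38.6 and 39.1 CPM. The 3 IL-1ß libraries were close to each other for both genes, IL-1ß 3 included. Reads of MS4A paralogs can be shared between genes, so the split between the pair is uncertain.

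VCAM1, an adhesion molecule for leukocytes and a target of NF-kB, was at 2.2, 16.2 and 10.4 CPM with PRP lysate and 178, 170.2 and 84 CPM with IL-1ß alone (log2 fold change -4.00 ± 0.56, adjusted p = 0.000985). The lowest value was that of PRP lysate 1, and the groups did not overlap. TGFBI, a secreted matrix protein named for its induction by TGF-ß, was an abundant transcript at 2246, 2327 and 1952 CPM with IL-1ß alone and at 108, 236 and 361 CPM with PRP lysate. The ratio of its means was 9.26-fold, and PRP lysate 1 was the lowest library. Also among the 12 largest falls were 2 immune receptors listed by identifier, ENSECAG00000002438, described as a signal regulatory protein, at 0.0537, 1.24 and 0.176 against 19.9, 20.3 and 10.9 CPM, and ENSECAG00000019222, described as a sialic acid binding lectin, at 7.17, 8.73 and 9.15 against 84.1, 103 and 100.4 CPM. Both belong to families of similar genes, and their values are uncertain to that extent. A2ML1, a protease inhibitor of the macroglobulin family, was at 4.54, 19.7 and 16.9 CPM against 248, 149.7 and 60.03 CPM, with no overlap although IL-1ß 3 was far under IL-1ß 1. The others were TMEM176B (-3.27), a membrane protein of antigen presenting cells, the ribonuclease RNASE6 (-3.17), ANKRD22 (-3.17) and MILR1 (-3.13), an inhibitory receptor first described in mast cells. These are log2 fold changes, and each of these genes was called with every single library left out.

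**Figure D3:**
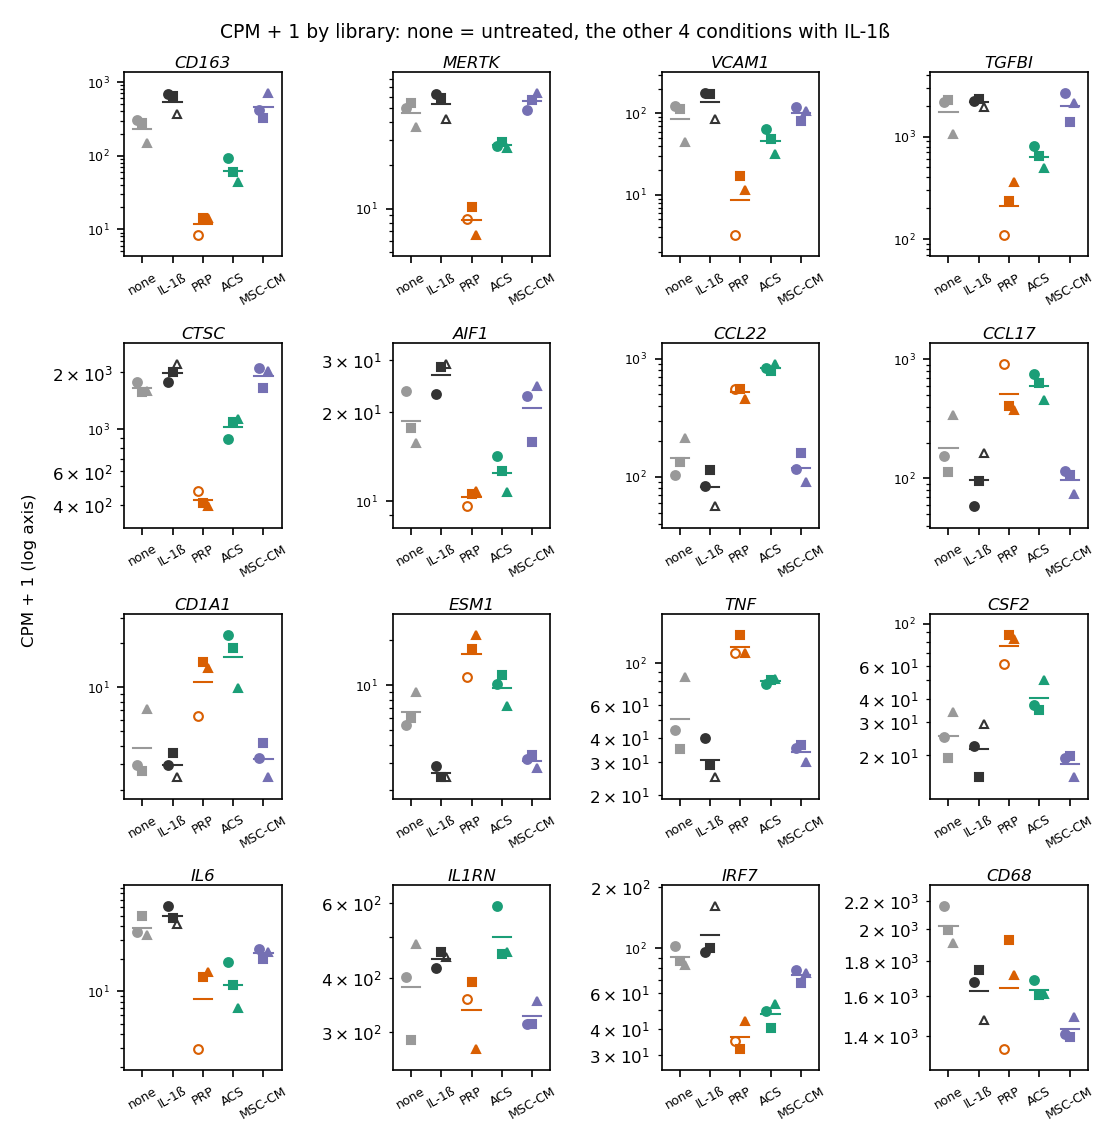
Points give CPM + 1 (log axes, scaled per gene) of 16 genes in each of 3 libraries per condition, circles, squares and triangles for replicates 1, 2 and 3, with lines at the geometric means and open symbols for PRP lysate 1 and IL-1ß 3. CD163 lies under 14 CPM in all PRP lysate libraries and at 365 CPM or more in all IL-1ß libraries, whereas the CD68 values of the groups overlap.

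CCL22, a chemokine that draws CCR4-bearing T cells, had the largest rise in log2 fold change. It was at 558, 551 and 460.5 CPM in PRP lysate 1, 2 and 3 and 83.2, 114 and 55.5 CPM in IL-1ß 1, 2 and 3 (log2 fold change 2.67 ± 0.29, adjusted p = 0.000183). CCL17 acts on the same receptor and lies near CCL22 on chromosome 3 (10308740 to 10313566 for CCL22 and 10345976 to 10357681 for CCL17). It was at 906, 400.4 and 373 CPM against 57.5, 93.9 and 164 CPM. PRP lysate 1 was the highest for CCL17, and the groups did not overlap for either chemokine (CCL17 log2 fold change 2.41, adjusted p = 0.00785). ESM1, a proteoglycan secreted by activated endothelium, was at 10.4, 16.4 and 20.6 CPM against 1.89, 1.41 and 1.42 CPM (2.66 ± 0.27, adjusted p = 0.000113). CCBE1, which promotes the processing of the lymphatic growth factor VEGF-C, was at 3.79, 9.28 and 13 CPM against 1.0, 1.47 and 0.519 CPM, lowest in PRP lysate 1 among the treated. TNF was at 112, 139 and 112 CPM against 39.4, 27.7 and 23.9 CPM (1.99 ± 0.27, adjusted p = 0.0008), and its neighbour in the same cytokine family, LTA, at 28.4, 54.5 and 47.7 CPM against 10.7, 7.66 and 9.65 CPM (2.07). The remaining 6 of the 12 largest rises were NTNG2 (2.04), an adhesion protein of axons, MTSS1 (2.04), an actin regulator, TAGLN3 (1.93) and 3 genes that the file lists by identifier only, ENSECAG00000039383 (2.52), ENSECAG00000041947 (2.47) and ENSECAG00000031387 (1.95). The last lies between CCL22 and CCL17 on chromosome 3 (10321313 to 10332373). The study's text sets the name CX3CL1, that of the chemokine fractalkine, beside this identifier, and the file does not pair them. The gene is therefore not counted with the chemokines below, where it would add 1 riser. Of all 12, MTSS1 and ENSECAG00000039383 lost their calls in some fits that left out 1 library.

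Some macrophage markers and scavenger receptors fell, and none was called higher. Of 20 tested scavenger and haem receptors 5 fell, and of 22 macrophage markers 6 fell, where 2.02% of all genes did, with median log2 fold changes of -0.72 and -0.85 against 0.11 for all genes. Without the pair that stood apart the medians were -0.60 and -0.65, and the same number fell in each list. Without IL-1ß 2 each count was 3, and without PRP lysate 2 or 3 that of the macrophage markers was 4. Besides CD163 and CD163L1 the scavenger receptors that fell were STAB1, at 2.53, 11.4 and 17.1 CPM against 64.4, 66.5 and 44.7 CPM, CD36, at 20.9, 77.2 and 58.1 CPM against 252, 218 and 105 CPM, and MARCO, at 0.699, 1.48 and 1.13 CPM against 4.0, 6.44 and 3.7 CPM. PRP lysate 1 was the lowest library for each. MARCO did not pass without the pair (adjusted p = 0.0535). The mannose receptor MRC1 did not pass, at 515, 1565 and 2074 CPM against 3394, 2291 and 1152 CPM with overlapping groups (adjusted p = 0.43). The actin-binding marker AIF1 was at 8.63, 9.56 and 9.86 CPM against 22.1, 27.3 and 28.1 CPM, and lysozyme (LYZ) was low in both groups at 2.9, 1.46 and 1.13 CPM against 3.81, 15.8 and 8.13 CPM. CSF1R, the receptor of M-CSF, was at 94.3, 244 and 207 CPM against 469.6, 431 and 227 CPM and did not pass (adjusted p = 0.0914). The summed level of the macrophage markers was 5752, 9418 and 8969 CPM with PRP lysate and 12311, 11213 and 8109 CPM with IL-1ß alone, and the part of cell number in these falls was not tested.

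Genes for the uptake of dying cells were measured on a list of 16, of which 4 fell and 1 rose. The falls include STAB1 and CD36, already counted with the scavenger receptors, and C1QC, also counted with the macrophage markers and with complement. MERTK, the receptor tyrosine kinase that engulfs apoptotic cells, was at 7.44, 9.35 and 5.56 CPM against 61.3, 58.1 and 41.1 CPM (-2.69 ± 0.21, adjusted p = 1.71e-05). The complement component C1QC was at 1.72, 3.01 and 1.23 CPM against 7.0, 11.3 and 11.7 CPM. The groups were apart for both genes, and PRP lysate 1 was not the extreme library for either. The integrin subunit ITGB5 was the member that rose, at 316, 378 and 290.03 CPM against 149.6, 166 and 159 CPM.

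Immune receptors of the Fc, SLAM and inhibitory families fell in 7 of 27 cases, with a median of -0.40, and of -0.65 without the pair that stood apart. LAIR1, an inhibitory receptor for collagen, was at 1.77, 4.28 and 2.53 CPM against 13.8, 23.6 and 21.4 CPM (-2.43, adjusted p = 0.000317). SLAMF9, a receptor of the SLAM family named in the study's text, was at 0.537, 0.311 and 0.0704 CPM with PRP lysate, 3.78, 7.06 and 7.05 CPM with IL-1ß alone and 2.2, 0.953 and 0.18 CPM in untreated cells (-2.39 ± 0.37, adjusted p = 0.00204). SLAMF8 was at 25.6, 51.2 and 42.2 CPM against 110.3, 128 and 153 CPM, and the IgE receptor chain FCER1A at 4.14, 3.66 and 5.46 CPM against 11.1, 15.3 and 20.5 CPM. CD244 fell with all libraries (-1.90) and kept its call in 2 of the 6 fits that left out a library. ENSECAG00000022247, described in the annotation as an apolipoprotein R-like gene and also named by the study, was at 0.967, 2.7 and 1.87 CPM against 23.6, 20.3 and 18.6 CPM (-2.98 ± 0.31, adjusted p = 0.000138).

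Complement and coagulation genes fell in 6 of 27 cases and rose in 1. C4BPA, which restrains the classical pathway, was at 4.57, 13.5 and 15.1 CPM against 84.6, 74.7 and 47.2 CPM (-2.64, adjusted p = 0.0105). Properdin (CFP), which stabilises the alternative convertase, was at 94.3, 118 and 98.9 CPM against 257, 300.4 and 497 CPM (-1.70). C1R (-1.35), C2 (-1.01) and PLAU (-1.30), the urokinase, fell by less. Tissue factor (F3), the initiator of coagulation, was the member that rose, at 53, 149 and 124 CPM against 30.9, 22.4 and 23.7 CPM (1.93 ± 0.33, adjusted p = 0.00404). PRP lysate 1 was the lowest of the treated libraries for F3 and still above all IL-1ß libraries.

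Lysosomal genes fell in 4 of 52 cases, against 2.02% of all genes. The count was 8 with RLE or TMM factors, 9 with edgeR and 10 with DESeq2. Cathepsin C (CTSC), the protease that activates serine proteases of leukocytes, had a narrow spread. It was at 473, 409 and 392 CPM against 1786, 2003 and 2213 CPM (-2.23 ± 0.14, adjusted p = 3.01e-06). Legumain (LGMN) was at 541, 761 and 836 CPM against 2309, 2676 and 3729 CPM (-2.02). The acid phosphatases ACP2 (-1.10) and ACP5 (-1.07) fell by about the threshold fold, and CTSD had an adjusted p of 0.0193 at a log2 fold change of -0.92, under a fold of 2.

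**Figure D4:**
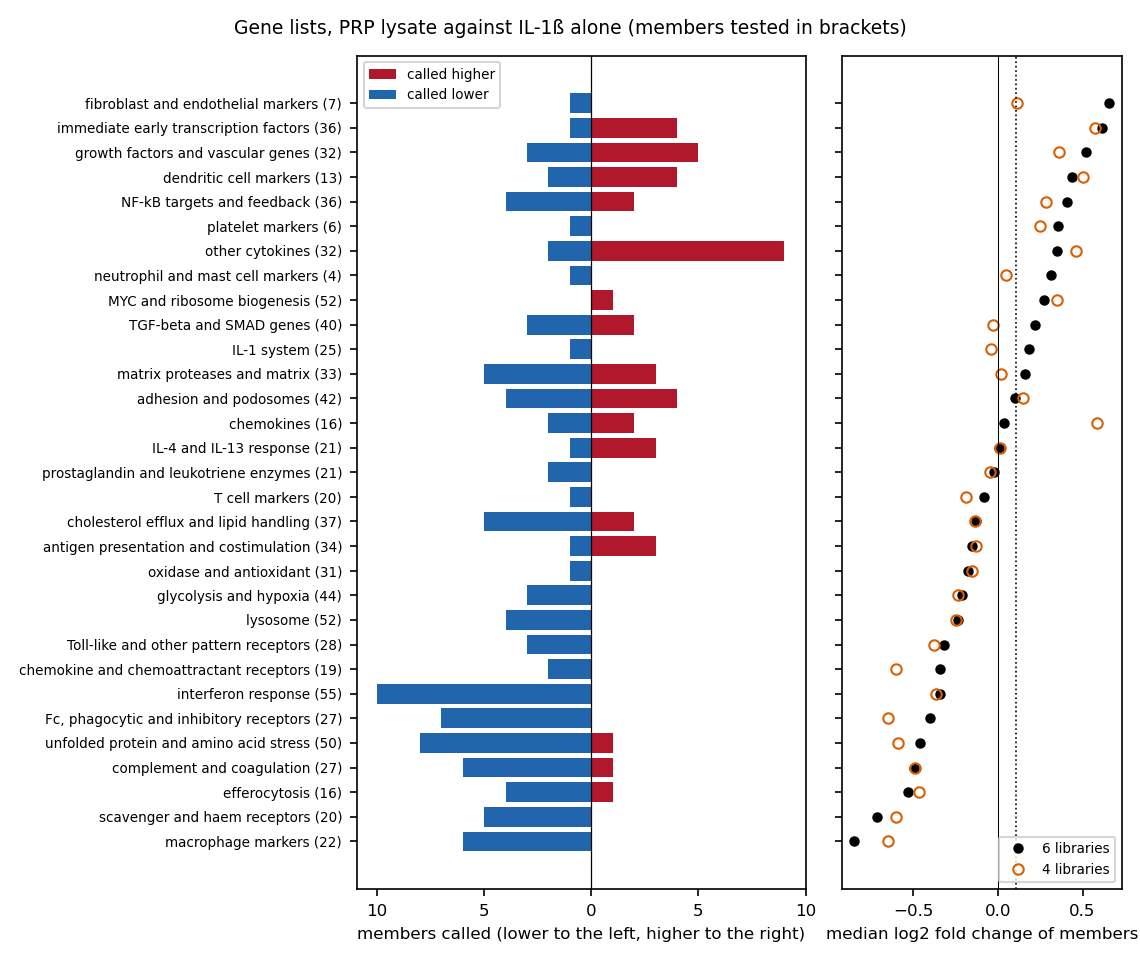
Left, the number of members called lower (leftwards) and higher (rightwards) of each gene list with any call, with the members tested in brackets. Right, the median log2 fold change of the members with all 6 libraries (filled) and without PRP lysate 1 and IL-1ß 3 (open), with a dotted line at the median of all genes, 0.11. With all 6 libraries the medians run from -0.85 for macrophage markers to 0.66 for fibroblast and endothelial markers. The latter was 0.11 without PRP lysate 1 and IL-1ß 3.

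Genes linked to dendritic cells and to the response to IL-4 and IL-13 were called in both directions. Of 13 dendritic cell markers 4 rose and 2 fell, and of 21 genes of the IL-4 and IL-13 response 3 rose and 1 fell. CCL22 and CCL17, which both lists hold, led the risers. CD1A1, a lipid antigen presenting molecule, was at 5.35, 13.8 and 12.6 CPM against 1.97, 2.57 and 1.45 CPM (1.87, adjusted p = 0.0236), and it belongs to a family of similar CD1A genes. Its call held in 2 of the 6 fits that left out a library. IRF8, a transcription factor of monocyte and dendritic cell development, was at 697, 698 and 517 CPM against 308, 289 and 220.2 CPM (1.22 ± 0.20, adjusted p = 0.00271). The maturation marker CD83 was at 519.6, 473 and 436 CPM against 253, 259 and 184 CPM, and the costimulatory receptor CD40 at 158, 190.4 and 156 CPM against 79.4, 67.2 and 59.2 CPM. The groups were apart for each of these genes. CD83 fell short of a fold of 2 without the pair (0.82, adjusted p = 0.0483). TGM2, a transglutaminase that IL-4 induces in macrophages, went the other way, at 449, 528 and 417 CPM against 1455, 1549 and 1102 CPM (-1.55 ± 0.18, adjusted p = 0.000309). FLT3, the growth factor receptor of dendritic cell precursors, fell as well (-1.52). CISH, a target of STAT5, had an adjusted p of 0.00715 at 0.83, under a fold of 2. The dendritic cell genes CLEC9A, XCR1 and CD1C did not exceed 0.389 CPM in any of the 6 libraries.

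Cytokine transcripts other than those of the IL-1 family rose in 9 of 32 cases and fell in 2, with a median of 0.35. With 1 library left out the median ran from 0.26 to 0.58. Next to TNF and LTA, CSF2 (GM-CSF) was at 60.1, 85.9 and 82.2 CPM against 21.5, 14.3 and 28.4 CPM (1.82 ± 0.27, adjusted p = 0.0014). IFNG was at 30.1, 36.1 and 43 CPM against 10.4, 9.63 and 7.71 CPM (1.87 ± 0.24, adjusted p = 0.000539). Every PRP lysate library was above every IL-1ß library for both. IL17A was low, at 5.13, 8.82 and 5.03 CPM against 1.81, 1.67 and 0.415 CPM, and IL13 was at 50.7, 64.7 and 43.3 CPM against 17.5, 19.9 and 18.5 CPM (1.44). LTA, IFNG, IL17A and IL13 are chiefly products of lymphocytes. The T cell marker sums given above overlapped between the groups. Without the pair that stood apart they were 1614 and 1907 CPM with PRP lysate against 2056 and 2226 CPM with IL-1ß alone. IFNG and LTA differed by 1.88 and 2.37 on the log2 scale without the pair. NK and cytotoxic markers summed to 2140.3, 1017 and 1172 CPM with PRP lysate and 827, 885 and 1234 CPM with IL-1ß alone. Their sums without the pair were 1017 and 1172 CPM against 827 and 885 CPM. The part of T cells or of NK and cytotoxic cells in the cytokine result was not tested.

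The epithelial cytokine TSLP was at 1.02, 3.08 and 1.76 CPM with PRP lysate and had no read in any IL-1ß library, where a count of 0 allows at most 0.104 CPM (3 reads in the shallowest library, counting error only). It was at least 18.9-fold higher with PRP lysate on the mean level (adjusted p = 0.00237). INHBA, the activin A subunit, was at 456, 685 and 446 CPM against 248, 192 and 123 CPM, and CSF1, which encodes M-CSF, at 2168, 4016 and 3316 CPM against 1731, 1467 and 565 CPM. INHBA did not pass without the pair (adjusted p = 0.0534). IL6 was the cytokine that fell furthest, at 1.96, 12.5 and 13.9 CPM against 59.8, 46.7 and 40.4 CPM (-2.55 ± 0.51, adjusted p = 0.0102). PRP lysate 1 was the lowest library, and the groups stayed apart without it. IL27 (-1.33) was at the edge of the threshold (adjusted p = 0.0486) and did not pass without the pair (adjusted p = 0.168).

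Of 25 genes of the IL-1 system 1 was called, where 3.09% of all genes were. It was the inflammasome adaptor PYCARD, at 35.7, 25.2 and 18.3 CPM against 43, 54.8 and 83.3 CPM (-1.16, adjusted p = 0.0204), and it was called in 2 of the 6 fits that left out a library. Without the pair 2 members were called higher and 3 lower, and with all 6 libraries DESeq2 called 3 lower. By limma none was called without PRP lysate 3, without IL-1ß 2 or in the fit of the 6 libraries alone. IL1RN was at 358, 390.2 and 273 CPM against 421, 460.5 and 447 CPM and did not pass (-0.39 ± 0.19, adjusted p = 0.296), although all 3 PRP lysate libraries lay under the IL-1ß libraries. IL1B was at 6.53, 76.4 and 67.9 CPM against 32.7, 21 and 19.5 CPM (0.47 ± 0.67, adjusted p = 0.75). PRP lysate 2 and 3 were above all IL-1ß libraries and PRP lysate 1 was below them, and without the pair that stood apart the log2 fold change was 1.42 (adjusted p = 0.014). IL10, a regulatory cytokine, was at 11.1, 7.63 and 9.19 CPM against 8.56, 9.58 and 12.1 CPM with overlapping groups (adjusted p = 0.825).

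Chemokines outside the IL-4 list were measured on 16 genes, of which 2 rose and 2 fell, against 1.07% and 2.02% of all genes. CCL3 was at 3216, 3489 and 3358 CPM against 841, 796 and 1158 CPM (1.87 ± 0.21, adjusted p = 0.000265) and had even PRP lysate values. CXCL1, a neutrophil chemokine, was at 1829, 3061 and 2505 CPM against 1415, 989 and 1128 CPM (1.05). It was called in 2 of the 6 fits that left out a library and fell short of a fold of 2 with RLE factors, DESeq2 and edgeR (0.96 to 0.98). CXCL8, which acts on the same neutrophil receptors, was at 907, 2874 and 3058 CPM against 958, 686 and 854 CPM (adjusted p = 0.0881). PRP lysate 1 lay among the IL-1ß values and the others above them, and CXCL8 passed without the pair (1.87, adjusted p = 0.00102). The falls were CCL14, at 1.8, 5.16 and 5.53 CPM against 19.3, 33 and 43.4 CPM, and CXCL11, at 2.42, 13.3 and 7.67 CPM against 26.7, 29.7 and 24.8 CPM. CXCL10 (-0.34) and CCL5 (0.66) did not pass, with adjusted p-values of 0.62 and 0.244. Without the pair 5 chemokines were called higher and 2 lower, and the median of the list went from 0.03 to 0.58. Of 19 chemoattractant receptors 2 fell, CMKLR2 (-2.50), a receptor for chemerin, and CCR6 (-1.83), and the count was 4 with RLE or TMM factors.

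Interferon response genes fell in 10 of 55 cases and the other 45 did not pass, with a median of -0.35 and 43 members below 0, as were 4517 of all 11628 genes. IRF7, the transcription factor that amplifies type I interferon, was at 34, 31.2 and 42.8 CPM against 95, 99.1 and 159 CPM (-1.65 ± 0.20, adjusted p = 0.000342). IL-1ß 3 was the highest library, and the groups were apart without it too. OAS1, an antiviral synthetase, was at 15.7, 21.6 and 29.7 CPM against 59.2, 55.5 and 61.4 CPM (-1.40), and IFIT3 was at 14.9, 45.7 and 47.2 CPM against 104, 95.7 and 72.8 CPM (-1.46). ZBP1, a sensor of nucleic acid, fell by 1.37 on the log2 scale, and MX1 (-1.13) fell as well. Without the pair 8 members were called lower and 1 higher. The count of 10 was 5 without PRP lysate 2, 6 without IL-1ß 1, 4 without IL-1ß 2, 3 with the replicate block and 0 in the fit of the 6 libraries alone, and 2 of the 10 were called whichever library was left out. TLR1 and TLR7 fell among 28 pattern receptors, TLR1 at 3.84, 2.46 and 4.12 CPM against 15.5, 13.6 and 8.58 CPM and TLR7 at 0.134, 0.502 and 0.458 CPM against 3.31, 2.01 and 3.22 CPM, and CLEC6A was the third (-1.08, adjusted p = 0.0374), which did not pass without the pair (-0.83, adjusted p = 0.109).

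Targets and feedback genes of NF-kB were split, with 2 of 36 rising, CD40 and CD83, and 4 falling, while the median was 0.41. Without the pair 1 rose, since CD83 was lost, and 4 fell, and the median was 0.28. With RLE factors the median was 0.31. The falls were 2 without PRP lysate 1 or without IL-1ß 2, and 0 members were called in the fit of the 6 libraries alone. Next to VCAM1 and PLAU the falls were SOD2, the mitochondrial superoxide dismutase, at 406, 535 and 365 CPM against 1572, 1375 and 792 CPM (-1.48 ± 0.28, adjusted p = 0.00849), and TNFAIP6, a hyaluronan-binding protein of inflamed joints, at 57.2, 127 and 149.7 CPM against 297, 264 and 257 CPM. The inhibitor genes NFKBIA (0.32) and TNFAIP3 (0.82) did not pass, with adjusted p-values of 0.283 and 0.0784. Of 36 immediate early genes 4 rose and 1 fell, with a median of 0.62. ARC was at 49.4, 37.8 and 36.4 CPM against 12.5, 8.33 and 12.2 CPM (1.82), and the phosphatase DUSP5, which acts on ERK, at 119, 112 and 105 CPM against 42.9, 39.9 and 50.3 CPM (1.32). SPRY2 (1.38) and FOSL1 (1.11) rose too. CEBPD, a transcription factor of the acute phase response, was the member that fell, at 8.38, 5.59 and 6.02 CPM with PRP lysate, 49.7, 49.98 and 42.6 CPM with IL-1ß alone and 10.3, 8.33 and 8.78 CPM in untreated cells (-2.67 ± 0.20, adjusted p = 9.87e-06). Its PRP lysate values were near those of untreated cells and far under those of IL-1ß alone.

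Genes of the unfolded protein response and of amino acid stress fell in 8 of 50 cases and rose in 1. Those for which untreated and PRP lysate values were close included DDIT4, an inhibitor of mTORC1, at 18.7, 12.1 and 13.4 CPM with PRP lysate, 49, 56.2 and 59 CPM with IL-1ß alone and 11.8, 10.6 and 11.3 CPM in untreated cells (-1.84 ± 0.18, adjusted p = 9.7e-05). TRIB3, a pseudokinase induced by ATF4, was at 27.9, 17.2 and 23.3 CPM, 58.1, 74.4 and 73.1 CPM and 16.2, 14.3 and 19.1 CPM in the same order. CHAC1, which degrades glutathione, was at 4.76, 1.0 and 3.06 CPM, 16.9, 24.3 and 10.4 CPM and 1.23, 1.04 and 1.74 CPM. The chaperone HSPA5 (BiP) was at 718, 679 and 759.96 CPM, 1884, 2039 and 1062 CPM and 824, 769.9 and 747 CPM, lowest in IL-1ß 3 among the IL-1ß libraries. GPT2 (-1.97) and NUPR1 (-2.14) fell in the same comparison, NUPR1 from 28.3, 21 and 35.3 CPM to 6.48, 5.07 and 5.03 CPM with untreated cells at 27.7, 13.4 and 21.8 CPM. The lipoprotein receptor VLDLR was the member that rose (1.25, adjusted p = 0.0367), and it missed a fold of 2 without the pair (0.98). Without the pair 12 members were called lower.

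Growth factor and vascular genes rose in 5 of 32 cases and fell in 3. VEGFC, the lymphatic growth factor, was at 3.82, 12 and 11.9 CPM against 2.97, 1.47 and 1.45 CPM (1.69, adjusted p = 0.0173), lowest in PRP lysate 1 among the treated. ANGPTL4, an inhibitor of lipoprotein lipase, was at 240.4, 256 and 333 CPM against 52.5, 80.1 and 124 CPM (1.75). STC1 (1.61), a secreted glycoprotein, ESM1 and CCBE1 completed the risers. IGFBP4, which binds insulin-like growth factors, was at 0.161, 0.55 and 1.27 CPM against 10.2, 13.6 and 13.5 CPM (-3.06), PECAM1, an adhesion molecule of endothelium and monocytes, at 48.3, 71.7 and 71.3 CPM against 500.4, 455 and 244 CPM (-2.59 ± 0.34, adjusted p = 0.000694), and NRP1, a co-receptor of VEGF, at 2.23, 13.7 and 15.1 CPM against 105, 96.8 and 25.7 CPM (-2.83). IL-1ß 3 was the lowest IL-1ß library for PECAM1 and NRP1 and still above the treated ones.

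Matrix genes were mixed as well, with 3 of 33 rising and 5 falling. MMP1, the interstitial collagenase, was at 100.5, 197 and 209 CPM against 417, 576 and 552 CPM (-1.66 ± 0.27, adjusted p = 0.00242). MMP9, a gelatinase, was abundant, at 12562, 16324 and 15540.1 CPM against 9759, 9470.2 and 10830.3 CPM, a difference of 0.56 on the log2 scale that was under a fold of 2 (adjusted p = 0.0446). TIMP3, an inhibitor of metalloproteinases, was at 105, 113 and 67.6 CPM against 31.6, 27.8 and 23.5 CPM (1.72, adjusted p = 0.000445). MATN4 (1.79) and COL6A2 (1.53) rose as well. The proteoglycan VCAN was at 18.8, 72.1 and 95.4 CPM against 960.2, 492 and 114 CPM (-2.87), with a wide spread in both groups and no overlap. ADAM28 (-2.40), a membrane protease, and COL4A2 (-1.64) fell. Of 40 TGF-ß and SMAD genes 2 rose, INHBA and SMAD6 (1.02), an inhibitory SMAD, and 3 fell. Without the pair neither rise passed, SMAD6 being under a fold of 2 (0.91), and the count of rises was also 0 without PRP lysate 2, without PRP lysate 3, without IL-1ß 3 or with the replicate block. The median of the list went from 0.22 to -0.03. Next to TGFBI the falls were ACVRL1, a receptor for BMP9, at 3.09, 8.27 and 7.07 CPM against 36.1, 49.2 and 34.2 CPM (-2.58 ± 0.27, adjusted p = 0.000151), and SMAD1 (-1.27).

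In lipid handling 5 of 37 genes fell and 2 rose. GPBAR1, a bile acid receptor, was at 0.403, 1.12 and 1.37 CPM against 7.98, 10.9 and 17.5 CPM (-2.71), and CH25H, which makes 25-hydroxycholesterol, was low at 0.242, 1.17 and 0.493 CPM against 4.92, 3.45 and 5.19 CPM (-1.78). PLTP (-1.58), a phospholipid transfer protein, and ABCG1 (-1.36), a cholesterol exporter, fell too. Of 21 prostaglandin and leukotriene genes 2 fell, the phospholipases PLA2G4A (-1.77) and PLA2G7 (-1.37), against 2.02% of all genes. The count was 4 with DESeq2 on the same genes, 0 with the replicate block and 1 without PRP lysate 1, PRP lysate 2 or IL-1ß 2. Of 44 genes of glycolysis and hypoxia 3 fell, DDIT4, the myeloid hexokinase HK3 at 20.9, 15.1 and 18.8 CPM against 60.2, 66.4 and 65.1 CPM (-1.76 ± 0.15, adjusted p = 3.15e-05), and PFKFB3 (-1.19), an activator of glycolysis. Adhesion genes rose in 4 of 42 cases and fell in 4, against 1.07% and 2.02% of all genes, and the rises ran from 2 to 6 with 1 library left out. The junctional proteins F11R, at 20.02, 31.2 and 35.1 CPM against 10.4, 8.81 and 5.67 CPM, and JAM2, at 32.8, 52.3 and 54.3 CPM against 16.3, 14.7 and 13.3 CPM, rose with DSG2 (1.65) and ITGB5. P-selectin (SELP), which platelets and endothelium carry, fell, at 4.25, 3.2 and 3.59 CPM against 19.9, 31.6 and 26.2 CPM (-2.50 ± 0.28, adjusted p = 0.000218), and so did the integrin subunit ITGA9 (-1.86).

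In 4 further lists no member was called by limma, DESeq2 or edgeR. None of 80 cell cycle and replication genes passed, with 5 higher and 1 lower at an unadjusted p under 0.05. Of 38 genes of cholesterol and fatty acid synthesis 11 were higher and 2 lower at that level. For 64 genes of oxidative phosphorylation and 52 ribosomal protein genes the count was 0 in either direction. Of 52 genes of MYC targets and ribosome biogenesis 1 rose, ODC1, at 186, 238 and 272 CPM against 112, 134 and 89.1 CPM (1.05), where 1.07% of all genes rose. DESeq2 and edgeR called 0 members, and so did limma without PRP lysate 3 or IL-1ß 3 and with RLE or TMM factors. Of the 52, 50 had a log2 fold change above 0, as had 7111 of all 11628 genes. MYC itself had an adjusted p of 0.0431 at 0.69, under a fold of 2. The median of the list was 0.27, and 0.35 without the pair.

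Of 18 platelet marker genes 6 reached the level for testing. The platelet glycoprotein genes GP1BA, GP5 and GP9 did not exceed 0.563 CPM in any PRP lysate library and TUBB1 did not exceed 0.215 CPM. PPBP, abundant in platelets and also made by activated monocytes, was at 10.7, 39.1 and 31.8 CPM against 12.1, 11.2 and 11.1 CPM (adjusted p = 0.208), with PRP lysate 1 under all IL-1ß values and PRP lysate 2 and 3 above them. ITGB3, a subunit of the fibrinogen receptor that macrophages also carry, made up most of the list's sum in each library but IL-1ß 3, at 116, 351 and 351 CPM against 171, 115 and 21.3 CPM. Red cell markers summed to at most 2.92 CPM with PRP lysate and 6.64 CPM with IL-1ß alone. Of 20 tested T cell markers 1 was called, CD7 (-1.58), which fell. CD3E was at 507, 172 and 209 CPM against 190.1, 255 and 520.5 CPM and did not pass (adjusted p = 0.863). For 15 NK and cytotoxic and 10 B cell markers the count by limma with all 6 libraries was 0. At an unadjusted p under 0.05, 4 NK and cytotoxic markers were higher and 1 lower, and 2 B cell markers were lower. With 1 library left out limma called up to 1 NK and cytotoxic marker higher and up to 1 lower, and up to 1 B cell marker lower. DESeq2 called 1 member lower in each of these lists and edgeR called 0. GZMA, a granule protease, was at 184, 127 and 165 CPM against 66.7, 78.8 and 108 CPM (0.91, adjusted p = 0.0374), under a fold of 2. Histidine decarboxylase (HDC) was the 1 of 4 neutrophil and mast cell markers that fell (-1.23), and PECAM1 the 1 of 7 fibroblast and endothelial markers, whose defining genes COL1A1, DCN and POSTN did not exceed 0.25 CPM.

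Without PRP lysate 1 and IL-1ß 3 the same fit called 513 genes, 200 higher and 313 lower, which is 4.41% of the genes tested (1.72% and 2.69%). Of these, 307 were also called with all 6 libraries, each in the same direction. They make up 85.5% of the 359 calls with the pair and 59.8% of the 513 without it. The median standard error over all genes was 0.25 with the pair and 0.20 without it, and 52 genes were called only with it and 206 only without it. Among the genes called only without it, ABCA1, a cholesterol exporter, was at 4.3, 34.2 and 31.1 CPM with PRP lysate and 315, 134 and 10.8 CPM with IL-1ß alone, where IL-1ß 3 fell among the treated values (-2.62, adjusted p = 0.00392). IL17F was at 0.403, 9.4 and 7.64 CPM against 1.31, 0.17 and 0.277 CPM and IL31, an itch cytokine of T cells, at 1.21, 11 and 17.9 CPM against 3.17, 1.21 and 1.59 CPM. Only PRP lysate 2 and 3 were high for these 2 genes. CRYAB, a small heat shock protein, was at 3.2, 3.47 and 5.63 CPM against 30.9, 19.1 and 2.18 CPM, and ENSECAG00000029620 was at 7.36, 0.43 and 0.81 CPM against 8.26, 5.23 and 17 CPM. The largest among those called only with the pair were INHBA, CELSR3 (1.51 with the pair and 0.99 without), ENSECAG00000021212 (-1.47 and -0.93), MARCO and ENSECAG00000024790 (-1.35 and -0.88).

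**Figure D5:**
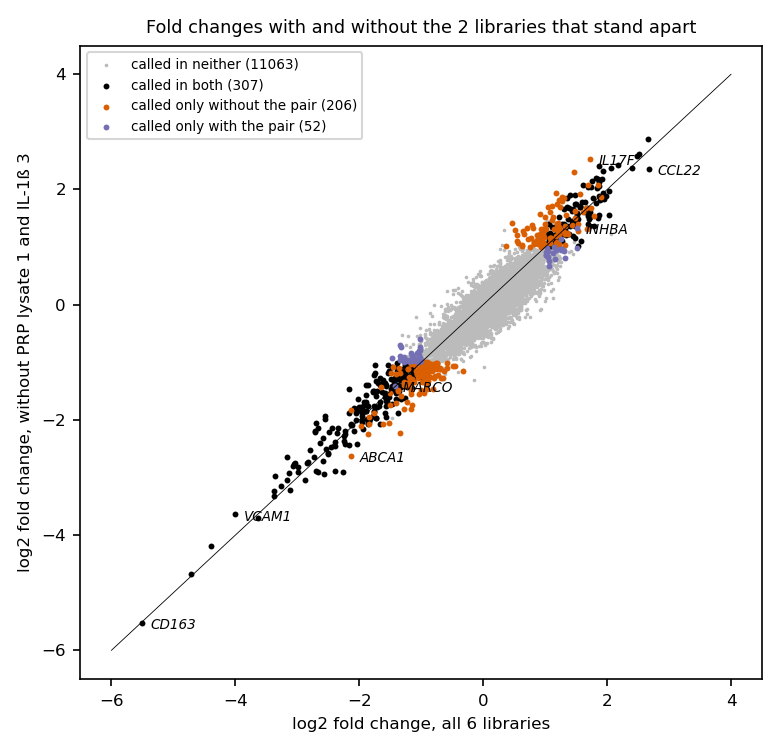
Each point is 1 gene, with its log2 fold change over all 6 libraries (horizontal) and without PRP lysate 1 and IL-1ß 3 (vertical), and the line marks equal values. The 307 genes called in both fits have the same sign in both, and ABCA1 and IL17F are among the 206 called only without the pair.

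The counts of 27 of the 38 gene lists differed without the pair. Those given above are not repeated. Growth factor and vascular genes went from 5 higher and 3 lower to 9 and 4, immediate early genes from 4 and 1 to 7 and 1, and other cytokines from 9 and 2 to 11 and 3. Pattern receptors went from 0 higher and 3 lower to 3 and 4, efferocytosis genes from 1 and 4 to 2 and 6, complement and coagulation genes from 1 and 6 to 3 and 7, adhesion genes from 4 and 4 to 6 and 4, and lipid handling genes from 2 and 5 to 3 and 6. In these 8 lists more members were called higher without the pair. Fc, phagocytic and inhibitory receptors called lower went from 7 to 9, chemoattractant receptors from 2 to 4, T cell markers from 1 to 3, matrix genes from 5 to 6, glycolysis and hypoxia genes from 3 to 4 and prostaglandin and leukotriene genes from 2 to 3. Dendritic cell markers went from 4 higher and 2 lower to 3 and 3. Antigen presentation genes, 34 of them, went from 3 higher (CD1A1, CD40 and CD83) and 1 lower (FLT3) to 2 and 3. B cell markers, NK and cytotoxic markers and genes of cholesterol and fatty acid synthesis had 1 member lower in place of 0, platelet markers 2 higher in place of 0, and fibroblast and endothelial markers 1 higher in place of 0. Of 31 genes of oxidases and antioxidants SOD2 was called lower with and without the pair. Among the genes named above, C2 (-0.98) and MX1 (-0.98) also fell short of a fold of 2 without the pair. Among the same tested genes, DESeq2 moved the count of macrophage markers called lower from 6 to 10, of lipid handling genes from 5 to 8 and of pattern receptors from 3 to 5. It also called 2 T cell markers lower in place of 1 and 2 pattern receptors higher in place of 0. Antigen presentation genes called lower were 3 with RLE or TMM factors, DESeq2 and edgeR in place of 1. CD83, CXCL1, ITGB5 and ODC1 were not called with RLE factors, DESeq2 or edgeR. Called genes named above whose calls held in 1 or 2 of the 6 fits that left out a library were, next to those already said to, SPRY2, DSG2, LYZ, PLA2G4A, PLAU, VCAN, ZBP1, LIMCH1, SPEF2, C2, VLDLR, INHBA, MARCO, IL27 and CLEC6A. In 29 lists a count moved by more than 1.5 times when 1 library was left out, and the fit of the 6 libraries alone called at most 2 members of a list in either direction.

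The levels reached with PRP lysate were set beside those of untreated macrophages as a description, since the genes were chosen for their difference from IL-1ß alone. Of the 235 genes called lower, 199 had all PRP lysate libraries under all untreated libraries, 35 overlapped them and 1 lay above. Over all tested genes 8.41% lay under the untreated libraries. Of the 124 called higher, 62 lay above all untreated libraries and 62 overlapped them, against 10.1% above over all tested genes. CD163, MERTK and CTSC are examples of the former kind of fall, and CEBPD, DDIT4 and TRIB3 of values near or just off the untreated range. IFNG was at 9.5, 7.4 and 12.6 CPM and CCL3 at 1419, 1307 and 2172 CPM in untreated cells, both under their PRP lysate values. F3, at 53.3, 48 and 83.1 CPM, and SPRY2, at 26.7, 36.6 and 40.3 CPM, overlapped them.

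Few genes passed between PRP lysate and ACS. Against ACS 11 genes were lower, 0.0946% of those tested, and 0 were higher by limma, while 209 were higher and 394 lower at an unadjusted p under 0.05 and DESeq2 called 5 of the same genes higher and 53 lower. A p that misses the threshold does not show that the products act alike. CD163 was at 92, 58.6 and 43.2 CPM with ACS (-2.39 ± 0.39, adjusted p = 0.0347), above PRP lysate and under IL-1ß alone. MERTK was at 26.5, 28.2 and 25.7 CPM with ACS (-1.74), and CTSC at 890.04, 1098 and 1133 CPM (-1.29), so that both lay between PRP lysate and IL-1ß alone. ACVRL1 (-1.92), SELP (-1.98), the organic cation transporter SLC22A3 (-1.85) and TMEM176B (-1.30) were also lower than with ACS. Of the remaining 4, MMP1 and CYP27B1 were higher in every ACS library than in every IL-1ß library. The ACS and IL-1ß values of TGM2 and NDUFA4L2 overlapped. MMP1 was at 676, 877 and 847 CPM with ACS (-2.30 ± 0.27, adjusted p = 0.00264) and TGM2 at 1944, 1975 and 1317 CPM (-1.89, adjusted p = 0.00116). CYP27B1, which activates vitamin D, was at 70.5, 98.5 and 95.6 CPM with ACS, 32, 23.8 and 14.9 CPM with PRP lysate and 61.9, 69.6 and 31.2 CPM with IL-1ß alone, and NDUFA4L2 was at 5.35, 7.4 and 7.1 CPM, 0.887, 1.53 and 0.845 CPM and 5.75, 7.66 and 8.89 CPM in the same order.

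Against MSC-CM 304 genes differed, 2.61% of those tested, 93 higher (0.8%) and 211 lower (1.81%) with PRP lysate. With the replicate number as a block, in the 12 libraries that carry one, 171 differed (55 higher and 116 lower). CD163 was at 411, 322 and 709.8 CPM with MSC-CM (-5.25 ± 0.39, adjusted p = 1.94e-05), CCL22 at 117, 157 and 89 CPM (2.14) and TNF at 34.4, 36.1 and 28.8 CPM (1.84). IL1RN, at 312, 312 and 354 CPM, did not pass against MSC-CM (adjusted p = 0.964) or against ACS, where it was at 588, 455 and 459.5 CPM (adjusted p = 0.614). CD163, MERTK, ACVRL1, SELP and SLC22A3 had the largest smallest difference among genes lower with PRP lysate than with IL-1ß alone, ACS and MSC-CM. SLC22A3 was at 7.6, 10.9 and 10.7 CPM with PRP lysate, 63.5, 61.2 and 30.3 CPM with IL-1ß alone, 36.2, 38.1 and 37.6 CPM with ACS and 37.1, 40.1 and 75.5 CPM with MSC-CM. The PRP lysate libraries are the same in all 3 comparisons, so these values are given side by side and are not independent.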

How the data were processed

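Poly(A) RNA, captured on oligo(dT) beads, was sequenced in 15 TruSeq libraries. The authors trimmed reads with cutadapt, aligned them to EquCab3.0 with STAR 2.7.3, counted genes with HTSeq and deposited CPM values. The strand setting is not given in the sources used here. The CPM stepped in whole reads (100% of 96625 values of up to 500 reads within 0.02 reads). The labels have cells collected 0 h after washing and the study 24 h later. Log2(CPM + 1) of genes that averaged 1 CPM or more was fitted over 15 libraries and 5 conditions with limma 3.58.1, with Benjamini-Hochberg adjustment. A gene was called at an adjusted p of 0.05 or less and a fold of at least 2, and fold changes on this scale understate those of low genes. Standard errors follow ±, except where SD is stated. The 3 horses that gave PRP also gave the blood and bone marrow for ACS and MSC-CM. No label ties a number to a horse. Deviations of same-numbered PRP lysate and MSC-CM libraries correlated at 0.63, 0.26 and 0.42. PRP lysate 2 correlated better with MSC-CM 3 (0.47) than with its own number, so these values do not settle the pairing. A fit with the number as a block is therefore given beside the unblocked one for that comparison. With 3 against 3 libraries a single permutation test cannot go below 0.1. The fits and the read recovery were tested on simulated data. With 200 genes changed, limma called 137 of them and 7 unchanged genes. DESeq2, run on more genes, called 157 of them and 46 unchanged genes. Of changes of 2-fold, limma called 22% and DESeq2 32%. With no gene changed limma called 0 and DESeq2 4. DESeq2 thus made more false calls than limma in this simulation. Alternatives used DESeq2 1.42.0 and edgeR 4.0.16 on the recovered reads. Named genes were IL1RN and genes the study's text names, the 12 largest rises and falls, leading and key members of each of 38 lists, and genes that depended on the pair of libraries or differed from all other IL-1ß conditions. CSF1, IL13, TSLP, CYP27B1 and NDUFA4L2 were named after their values were seen, and CPM of some marker genes are given as checks of cell type. Members and lists were chosen with earlier results of these data known. Promoter sequences were not analysed here. Values of 2 marker genes are not reported here. Columns of the deposited table that are not CPM hold gene identity and annotation.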

Additional observations from a re-analysis of the deposited data

How the results depend on the processing

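Against IL-1ß alone the count of 359 genes (124 higher, 235 lower) became 694 (247 and 447) with DESeq2 on all genes with a read, 558 of them (174 and 384) among the 11628 of the limma test, 56 (10 and 46) in a fit of the 6 libraries alone, 574 with no fold threshold and 513 (200 and 313) without PRP lysate 1 and IL-1ß 3. Leaving out 1 library at a time gave 275 to 469 genes, 79 to 212 of them higher and 173 to 300 lower. The count of higher genes moved by more than 1.5 times without PRP lysate 1 (212), PRP lysate 2 (79) or PRP lysate 3 (82). Replicate numbers did not pair PRP lysate with IL-1ß libraries: deviations of same-numbered libraries correlated at -0.77, 0.47 and -0.70, and not every library correlated best with its own number. With the replicate block 197 genes were called (59 and 138) against IL-1ß alone and 171 (55 and 116) against MSC-CM. ACS labels carry no number, so no paired analysis was made against ACS. The counts against ACS therefore take no account of shared donor horses. Without the pair, DESeq2 called 319 genes higher in place of 200, an alternative chosen after seeing the data. Groups that did not overlap went from 1740 genes to 5932 (3086 and 2846) without the pair, where 2 libraries stand against 2, and to 801 higher and 910 lower with RLE factors in place of 988 and 752. The cause of these shifts was not tested. Only the larger gene set with DESeq2 was checked, and 558 calls remained on the same genes.

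Against ACS the 11 genes became 61 with DESeq2 (7 higher, 54 lower, 58 of them among the same genes), and 5 to 16 with 1 library left out, 0 to 2 of them higher and 5 to 15 lower. They were 7 without PRP lysate 3 or ACS 1 and 5 without ACS 2. Against MSC-CM the 304 genes became 488 with DESeq2, 201 of them higher (442 and 186 among the same genes), and 171 to 398 with 1 library left out, 49 to 154 higher and 122 to 244 lower. Higher genes were 154 without PRP lysate 1, 56 without PRP lysate 2 and 49 without MSC-CM 3, where 171 were called in all and 122 lower. The other alternatives kept each count within 1.5 times. Of 133 named genes that were called, all kept their direction wherever the 16 alternatives gave a value, and 353 of 2114 values lost the call. Reversals were seen in 4 named genes that were not called. CD68 was -0.081 with RLE factors, -0.070 with TMM factors, -0.072 with DESeq2, -0.054 with edgeR and -0.10 to 0.16 with 1 library left out. With 1 library left out IL1B ran from -0.12 to 1.56, IL10 from -0.23 to 0.021 and CD3E from -0.63 to 0.26. At 1 CPM the shallowest library held 28.41 reads, which limits the precision of genes near that level.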

Other observations

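Several genes of the lists did not pass by limma with all 6 libraries and passed without PRP lysate 1 and IL-1ß 3, and their values by library are given here without explanation. They were picked after their values were seen. TREM1, a receptor that amplifies inflammation in myeloid cells, was at 2.18, 14.5 and 14.1 CPM in PRP lysate 1, 2 and 3 and 2.97, 3.53 and 1.76 CPM in IL-1ß 1, 2 and 3 (1.30 with all 6 libraries, adjusted p = 0.208, and 1.85 without the pair, adjusted p = 0.00597, limma). FOS, an immediate early transcription factor, was at 25, 66 and 70.1 CPM against 33.9, 31.5 and 28.9 CPM, and went from 0.62 to 1.04. Lipoprotein lipase (LPL) was at 1011, 2849.8 and 2504 CPM against 1254, 984 and 387 CPM, and went from 1.31 to 1.27. ITGB3 went from 1.68 to 1.32, and its PRP lysate 1 value lay among the IL-1ß values. ADGRE1, the F4/80 receptor of macrophages, was at 2.66, 12.9 and 9.79 CPM against 63.4, 41.9 and 11 CPM, and went from -1.97 to -2.10. CD4, which horse macrophages can share with T cells, was at 194, 199.6 and 218 CPM against 454, 403 and 249.6 CPM, and went from -0.81 to -1.03. Some were also called otherwise: TREM1, LPL and ADGRE1 by DESeq2 with all libraries, ADGRE1 by edgeR and with RLE or TMM factors, TREM1, FOS and LPL without PRP lysate 1 alone, LPL and ITGB3 without IL-1ß 1 alone, and ADGRE1 and CD4 without IL-1ß 3 alone. For each of these genes the direction was the same with and without the pair.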
